A study of Arabidopsis thaliana with 2 samples.

Results

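Extensins are rod-like structural glycoproteins of the plant cell wall. Their runs of serine and proline are hydroxylated and glycosylated in the secretory pathway, and tyrosines between the runs are cross-linked in the wall by peroxidases. In Arabidopsis, groups of classical extensin genes are known for their activity in roots and root hairs, and several lie beside a near copy of themselves. Such copies are hard to tell apart with short probes.

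The genes described here are 10 extensin loci of Arabidopsis thaliana, each taken with every probe set that the platform annotation assigns to it, alone or together with another gene. The loci were chosen with earlier values from these same arrays known, which were lower in the mutant, so the difference between the arrays is given as a description. Of the 10 loci, 7 had a probe set, 7 probe sets in all out of 22746 that are not controls. Over the whole array, 13355 genes had a probe set of their own. The other 3 loci, EXT10 (AT5G06640), EXT12 (AT4G13390) and EXT13 (AT5G35190), had no probe set named for them and are not analysed here.

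The series holds 2 ATH1 arrays, a 1-colour platform that reads each transcript with a set of short oligonucleotides. One array carried RNA from whole plants of axr4-2, an auxin-resistant mutant line, and the other RNA from whole wild-type plants. Both are labelled ecotype Col0 and growth stage 1.02, grown with 24 h of light at 22 °C. AXR4 is an endoplasmic reticulum protein needed for the auxin influx carrier AUX1 to reach the plasma membrane. The mutated transcript was not analysed here, so it could not serve as a check of the label. With 1 array per genotype, no difference below has a replicate check or a p-value. In whole plants, fewer cells of a type and less RNA per cell cannot be told apart. Values are the deposited intensities, and each log2 ratio is axr4-2 over wild type, with values under the 25th percentile of their array (12.1 in axr4-2, 13.6 in wild type) raised to it. No member value lay under that floor. A probe set was counted as measured when at least 1 of its values reached the median of its array (39.5 in axr4-2, 42.7 in wild type), which 12068 probe sets did.

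Extensin signals were mostly lower on the axr4-2 array. Of the 7 probe sets, 6 had a log2 ratio below 0, where 52.0% of all measured probe sets did. The log2 ratio was -1 or lower in 2 of the 7, against 1.40% of measured probe sets. Over all measured probe sets, 169 were 2-fold lower and 127 (1.05%) 2-fold higher, a balance that turned to 127 lower and 165 higher with quantile normalization and to 117 and 175 with the trend in intensity removed. The median log2 ratio of the 7 was -0.55 with a range of -1.04 to 0.12. Measured probe sets had a median of -0.02, and all probe sets without a filter -0.17. The latter equals the log2 ratio of the floors, which each probe set with both values under the floor takes. It is thus not a background. The 7 include the unmeasured sets of AT2G43150 and of AT4G08410 with AT4G08400, so the shares over measured probe sets are not a like background. These counts follow from how the loci were chosen. Of the 7 probe sets, 5 were measured. The one for AT3G54580 was measured through its wild-type value alone, so the 5 are not used as a group of their own. A letter in the suffix of a probe set name tells whether its probes are shared. An "_s_at" set matches several transcripts alike, an "_x_at" set holds probes that also match other sequences, and a plain "_at" set was designed for 1 transcript. By suffix, 4 of the 7 are "_x_at", 1 is "_s_at" and 2 are "_at".

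**Figure D1:**
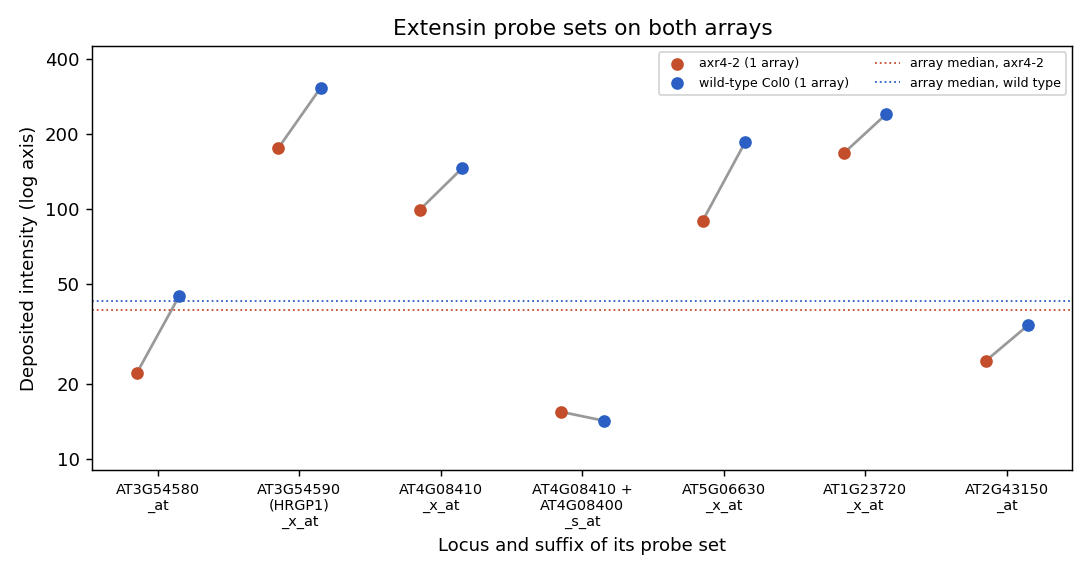
Deposited intensity (log axis) of the 7 extensin probe sets on the axr4-2 array (left point of each pair) and the wild-type array (right point), with the array medians as dotted lines. The axr4-2 point is the lower one in 6 of the 7 pairs, and the pair of the shared "_s_at" set lies at 15.4 and 14.2, under both medians.

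The neighbouring copies AT3G54580 and HRGP1 (AT3G54590) have no protein-coding gene between them in the RefSeq annotation. HRGP1, a gene for a hydroxyproline-rich glycoprotein, had an intensity of 175.1 in axr4-2, against 305.9 in wild type, through an "_x_at" set, a ratio of 0.572 and a log2 ratio of -0.80. Its neighbour AT3G54580, read by an "_at" set, gave 22.0 in axr4-2 and 44.8 in wild type, a ratio of 0.491 and a log2 ratio of -1.03. Both copies were thus lower in axr4-2. Their log2 ratios differed by -0.22 (AT3G54580 minus HRGP1). For scale, 30 genes with a pair of measured probe sets gave an SD of 0.41 per probe set for the log2 ratio. That makes 0.58 for the difference between 2 probe sets. This SD comes from the same 2 arrays, so it holds no variation between plants, RNA preparations or arrays. The AT3G54580 signal was dim: among 27 controls for bacterial transcripts, the brightest had 18.1 in axr4-2 and 27.1 in wild type. At such intensities all probe sets tended to be lower in axr4-2. The trend at the intensity of AT3G54580 was -0.24, and with it removed the log2 ratio was -0.78. Quantile normalization gave -0.87 and a floor at the 40th percentile -0.80, each short of 2-fold. The log2 ratio of the brighter HRGP1 was -0.84 with the trend removed.

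AT4G08400 and AT4G08410 are separated by 1 protein-coding gene, AT4G08406, for which no probe set was named. AT4G08410 had an intensity of 99.2 in axr4-2, against 145.6 in wild type, through its own "_x_at" set, a ratio of 0.681 and a log2 ratio of -0.55. The "_s_at" set assigned to AT4G08410 and AT4G08400 together had an intensity of 15.4 in axr4-2, against 14.2 in wild type, a ratio of 1.08 and a log2 ratio of 0.12. Both values of the shared set lay within the range of the bacterial controls given above, so its ratio has no settled direction and is not set against that of the "_x_at" set. Its log2 ratio became -0.17 once values were floored at the 40th percentile, the ratio of the floors themselves. AT4G08400 was read by the shared set only, so no signal of its own can be given for it.

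AT5G06630 lies next to EXT10 with no protein-coding gene between them, and only AT5G06630 had a named probe set, an "_x_at" set. It had an intensity of 89.6 in axr4-2, against 184.8 in wild type, a ratio of 0.485. At -1.04 its log2 ratio was the lowest of the 7, and 1.14% of measured probe sets were at or below it. Scaling moved it little, to -1.03 both with quantile normalization and with the trend removed. Because probes of such sets can match other sequences, the signal cannot be given to AT5G06630 apart from its neighbour or other near copies.

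The remaining loci have no copy beside them among the 10. AT1G23720 had an intensity of 167.7 in axr4-2, against 240.5 in wild type, through an "_x_at" set, a ratio of 0.697 and a log2 ratio of -0.52, with 9.61% of measured probe sets at or below it. AT2G43150 had an intensity of 24.6 in axr4-2, against 34.2 in wild type, through an "_at" set, a ratio of 0.719 and a log2 ratio of -0.48. Neither value of AT2G43150 reached its array median. The trend at its intensity was -0.27, and with the trend removed the log2 ratio was -0.20, within the SD of 0.41 per probe set.

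Probe sets of the "_x_at" kind were lower in axr4-2 across the array, whether or not they are named for 1 of the 10 loci. Of 126 such sets, 20 were measured, and 16 of these map to none of the 10 loci. Of the 16, 15 lay below 0 (93.8%) and 5 at or below -1 (31.2%), with a median log2 ratio of -0.70. However, 7 of the 16 reached the array median in wild type only, which favours a low ratio, and these 7 supply 3 of the 5. Of the 9 with both values at or above their array median, 8 lay below 0 and 2 at or below -1, with a median of -0.70. Chosen instead by the mean of both arrays, a rule added after seeing the data, 11 sets named for none of the 10 loci passed. Of these, 10 lay below 0 and 2 at or below -1, with a median of -0.65. The 4 "_x_at" sets of extensin loci had a median of -0.68. On the log2 ratio scale, AT5G06630 lay -0.34 and HRGP1 -0.10 from the median of the 16, while AT4G08410 lay 0.15 and AT1G23720 0.18 above it. At or below AT5G06630 were 5 of the 16, at or below HRGP1 7, and at or below AT4G08410 and AT1G23720 12 each. The extensin "_x_at" sets thus lay inside the range of the others, which ran from -1.92, with its axr4-2 value at the floor, to 0.08. Among the 9 with both values at or above the array medians the range was -1.20 to 0.08. Of the 16, 7 are unnamed here, so extensin loci among them can be neither counted nor left out.

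The shift of that class was not shared by the other suffixes. Measured "_s_at" sets had a median log2 ratio of 0.07 over 405 sets, and measured "_at" sets -0.02 over 11643. Removing the trend with intensity left the median of the 16 at -0.67. Other "_x_at" sets, named for none of the 10 loci, were also taken where both values lay at or above the floor, measured or not. Of these 40, 36 lay below 0. Their median was -0.53, and -0.18 with the trend removed. The part of this class-wide shift in the extensin values was not tested.

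**Figure D2:**
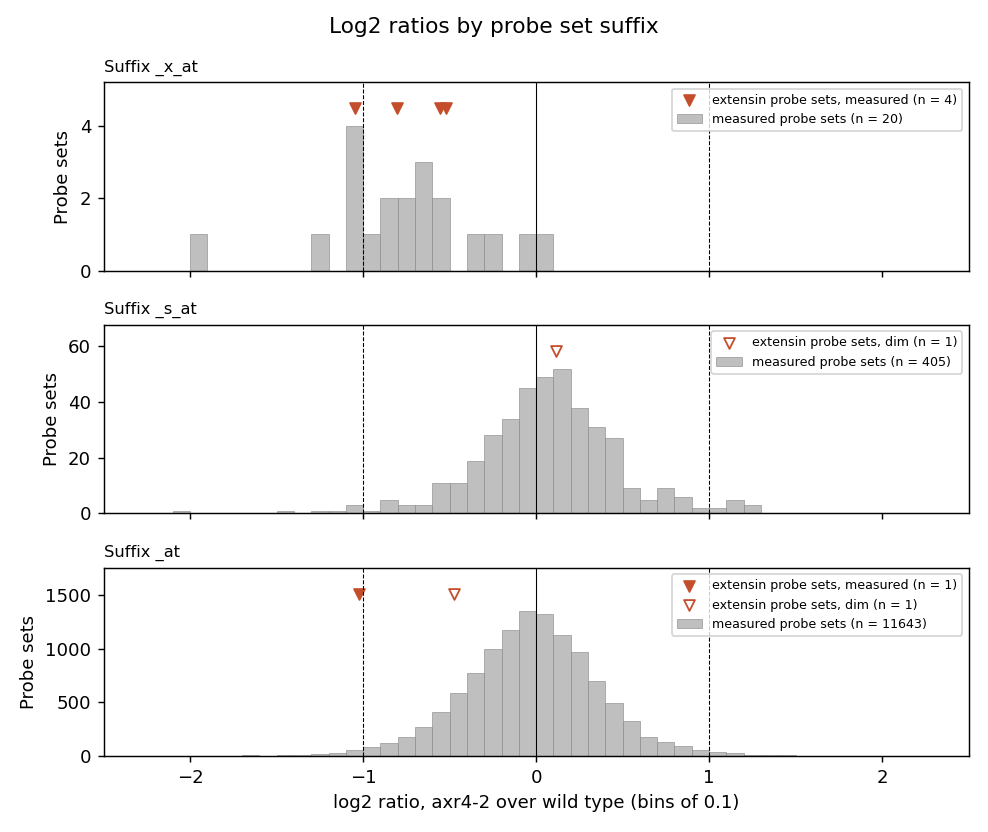
Number of measured probe sets (vertical axis) by log2 ratio of axr4-2 over wild type (horizontal axis, bins of 0.1) for each suffix, with extensin probe sets as triangles, open where neither value reached its array median. The "_x_at" sets centre near -0.70 with the 4 extensin sets among them, whereas the "_s_at" and "_at" sets centre near 0.07 and -0.02.

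Other extensin genes were read by "_at" sets and gave values outside that class. A list of 17 further loci for extensins and related hydroxyproline-rich proteins had a named probe set for 12, of which 4 were measured. All 4 lay below 0, where 52.0% of all measured probe sets did, and none was 2-fold apart, with a median log2 ratio of -0.40. AT3G06750 had an intensity of 381.7 in axr4-2, against 573.6 in wild type (log2 ratio -0.59), and AT3G28550 had an intensity of 28.6 in axr4-2, against 43.6 in wild type (-0.61). AT1G70990 had an intensity of 42.6 in axr4-2, against 49.2 in wild type (-0.21), and AT4G16140 had an intensity of 85.2 in axr4-2, against 97.0 in wild type (-0.19). All 4 lay above -0.69, the 5th percentile of measured probe sets, and the last 2 were within the per-probe-set SD of 0.41. Over all 12 probe sets, with no filter, the median was -0.18. This lies near -0.17, the log2 ratio of the floors, which sets with both values under the floor take. The unfiltered median is thus not set against that of all probe sets. Of these 12, 5 had both values under the floor and carry no ratio of their own. AT3G28550 was measured through its wild-type value alone.

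Leucine-rich repeat extensins join an extensin domain to a domain of leucine-rich repeats and bind signalling peptides at the wall. Of 11 listed loci, 8 had a named probe set and 2 were measured, both with "_at" sets. AT3G24480 had an intensity of 107.0 in axr4-2, against 152.5 in wild type (log2 ratio -0.51), and AT4G18670 had an intensity of 33.8 in axr4-2, against 53.7 in wild type (-0.67). Both were lower in axr4-2 but lay above -0.69, the 5th percentile of measured probe sets. AT4G18670 was measured through its wild-type value alone. Over all 8 probe sets, 4 of them with both values under the floor, the median was -0.22. The lists of proline-rich extensin-like receptor kinases and proline-rich wall proteins had no named probe set and are not analysed here.

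Enzymes that modify extensins had medians slightly above 0 among measured genes. Their difference from the structural genes was not tested. Prolyl 4-hydroxylases form the hydroxyproline to which sugars are attached. Of 13 listed loci, 4 were measured, 3 of them above 0, with a median log2 ratio of 0.10 that turned to -0.12 with no filter. Of the 8 unfiltered sets, 2 had both values under the floor. The median of all probe sets without a filter, -0.17, equals the log2 ratio of the floors and is not a background. AT5G18900 was the highest at 0.31 (171.3 in axr4-2 and 138.0 in wild type), followed by AT3G28480 at 0.12. AT5G66060 lay at 0.08 and AT4G33910 at -0.23. Glycosyltransferases of extensins had 4 of 9 loci measured, 3 above 0, with a median of 0.11. AT3G57630 had an intensity of 48.2 in axr4-2, against 32.5 in wild type (log2 ratio 0.57), and XEG113, an arabinosyltransferase, had an intensity of 102.5 in axr4-2, against 92.6 in wild type (0.15). AT5G13500 lay at 0.08 and AT3G01720 at -0.06. None of these 8 enzyme genes was 2-fold apart, and only AT3G57630 exceeded the per-probe-set SD. AT3G57630 was measured through its axr4-2 value alone, which favours a high ratio, and it is among the 3 glycosyltransferases above 0.

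Root hair genes and tissue markers were close to equal on the 2 arrays. Of 33 listed root hair loci, 5 had a named probe set and all 5 were measured, with 3 above 0 and a median log2 ratio of 0.06. EXPA7, an expansin gene of root hair cells, lay at -0.30, and SCN1, which restricts hair initiation to 1 site per cell, at -0.21. AT4G26010 (0.23) and AT1G30870 (0.19) were the highest. The summed intensity of the 5 probe sets was 582.4 in axr4-2 and 593.1 in wild type. No probe set was named for the 8 listed transcription factors of root hairs. As root markers, PYK10, an abundant beta-glucosidase, lay at 0.01 and AT5G26280 at -0.08, and their summed intensity was 3525 in axr4-2 and 3541 in wild type. The shoot markers RCA, LHCB4.1 and PRK, all photosynthesis genes, lay between 0.08 and 0.12, with a summed intensity of 8923 in axr4-2 and 8302 in wild type. Signals of both shoot and root were thus high on both arrays, as the label of whole plants says.

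**Figure D3:**
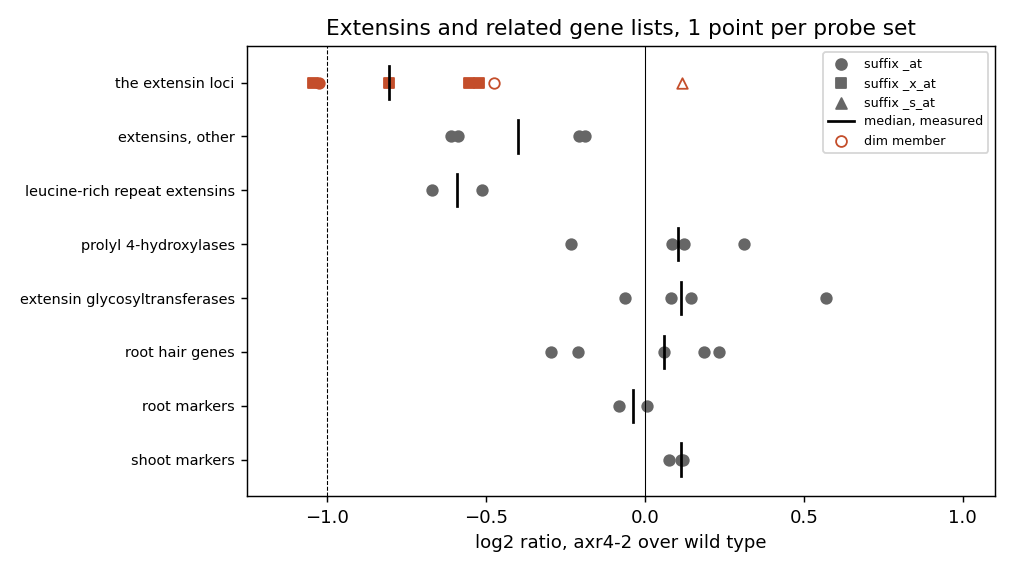
Log2 ratio of axr4-2 over wild type (horizontal axis) for each probe set of the extensin loci and of 7 related lists, with marker shape for the suffix, bars for the median of measured sets and open symbols for extensin sets under the array medians. All 4 measured other extensins and both measured leucine-rich repeat extensins lie left of 0, as do 52.0% of all measured probe sets. The medians of measured enzymes and root hair genes lie right of 0, that of prolyl 4-hydroxylases only with the filter. AT3G28550 and AT4G18670 were measured through wild type alone, and AT3G57630 through axr4-2 alone.

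Measured genes around the extensin loci were mostly not lower in axr4-2. Of the named, measured probe sets of genes within 3 protein-coding genes on either side of a locus, 11 map to no extensin locus of the set. Of the 11, 3 lay below 0, where 52.0% of all measured probe sets did. The 3 below 0 all lie near EXT13, which has no probe set here, and others of the 11 lie near EXT10 or EXT12 only. None of the 11 lies within 3 genes of AT5G06630, AT3G54580, HRGP1 or AT4G08410. All 11 are "_at" sets. AT1G23700, near AT1G23720 but not measured, was lower (16.8 in axr4-2 and 27.4 in wild type, log2 ratio -0.71). This comparison was chosen after the values were seen. The log2 ratios of the 11 ran from -0.06 to 0.47, with a median of 0.05 and none 2-fold apart. AT1G23710, beside AT1G23720, had an intensity of 53.6 in axr4-2, against 46.4 in wild type (log2 ratio 0.21). SAPX, a chloroplast ascorbate peroxidase gene before AT4G08400, had an intensity of 186.8 in axr4-2, against 135.1 in wild type (0.47).

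Signs of RNA quality were not equal. Control probe sets near the 3′ end of a transcript gain on those near its 5′ end when RNA degrades, and this 3′ to 5′ quotient was lower in axr4-2 for 4 of 6 pairs covering actin, GAPDH and ubiquitin. It ran from 1.05 to 7.78 in axr4-2 and from 1.03 to 4.08 in wild type. Both upper ends came from 1 pair, an older set of actin controls. The next highest were 2.36 in axr4-2 and 3.71 in wild type, both for older ubiquitin controls. Scan background averaged 70.79 in axr4-2 and 80.02 in wild type, per the labels. The part of these differences in the extensin values was not tested.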

How the data were processed

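The deposited table gives 1 linear intensity per probe set and array for 22810 probe sets, 64 of them controls. Both arrays had a mean of 100 once the top and bottom 2% were trimmed. The software behind the values is not given in the sources used here. Probe sets were named by gene ID through the platform annotation. Locus names and gene order, by chromosome and start position, came from RefSeq TAIR10.1. Of the 22746, 13513 had 1 gene, 503 several and 8730 none. Values were floored at the 25th percentile, and log2 ratios of axr4-2 over wild type were taken. 2-fold apart means a log2 ratio at or beyond 1 or -1. Groups came from the sample labels. The number of arrays, 1 per genotype, limits the precision, and no test was possible.

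The extensin loci and the gene lists were chosen with earlier results of these data known. Named are all loci and their probe sets, and, per list, the 2 measured genes with the highest and the 2 with the lowest ratio, with exceptions stated. With 2 arrays, a pattern is a single ratio, so no gene was named for likeness to the extensins. Alternatives covered scaling (median centring, quantile normalization, lowess, span 0.3), floor, filter and shared probe sets. The steps were tested on simulated data. Software was pandas 2.3.3 and numpy 2.4.6 under Python 3.11.15, with statsmodels 0.14.6 for lowess and matplotlib 3.10.9 for plots.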

Additional observations from a re-analysis of the deposited data

How the results depend on the processing

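Of the 7 extensin probe sets, 6 kept a log2 ratio below 0 with median centring, quantile normalization or the lowess trend removed. The same 6 did so under each change of floor, filter or shared probe sets that gave them a value. Centring on other "_x_at" sets, given below, did not keep all 6 below 0. The remaining set, shared by AT4G08410 and AT4G08400, ran from -0.17 with the floor at the 40th percentile to 0.50 with the lowess trend removed. The median reported above is that of all 7 sets, -0.55. That of the 5 measured sets, -0.80, includes AT3G54580 through its wild-type value alone, which favours a low ratio. Over the settings this filtered median ran from -1.03 (AT3G54580 alone, shared sets left out) to -0.55 (all 7 sets, no filter). Its range is thus not used as support. The number at or below -1, 2 as reported, became 1 with quantile normalization, the lowess trend removed, the floor at the 40th percentile, the filter at the 75th percentile, and shared probe sets left out. In the last case, 1 measured set remained, AT3G54580, and it lay below 0. Centring on the 16 other "_x_at" sets, chosen after seeing the data, moved the extensin "_x_at" median from -0.68 to 0.026. AT4G08410 (0.15) and AT1G23720 (0.18) then lay above 0, and HRGP1 (-0.10) and AT5G06630 (-0.34) below it. As 7 of the 16 are unnamed, some may be extensins. Of all measured probe sets, 169 lower and 127 higher became 361 and 200 with no filter, but 62 and 39 when filtered at the 75th percentile, through the number of sets counted. Flooring at the 40th percentile gave 83 higher sets. The balance turned with scaling, to 127 lower and 165 higher with quantile normalization and 117 and 175 with the trend removed. With no filter, the median of other extensins became -0.18 and that of leucine-rich repeat extensins -0.22, against -0.40 and -0.59 as reported. The median of prolyl 4-hydroxylases turned to -0.12 with no filter. That of all probe sets without a filter, -0.17, equals the log2 ratio of the floors. Extensin glycosyltransferases had no gene left with the filter at the 75th percentile and gave no value there. Low signal over background limits AT3G54580, AT2G43150 and the shared set. No paired analysis was possible because each genotype has 1 array, and for the same reason leaving out an array was not possible.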
